A study of Mus musculus with 6 samples.

Results

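The genes described here are 8 heavy chain genes of the mouse major histocompatibility complex (MHC) class I family, the light chain gene B2m and the activator gene Nlrc5. They were taken by name (H2-K1, H2-D1, H2-Q4, H2-Q6, H2-Q7, H2-T22, H2-T23, H2-M3, B2m and Nlrc5) and make 10 of the 35905 genes with a matched transcript. Their RNA was measured by RNA sequencing in EO771-tdT-LM2 cells and in EO771-tdT-Parental cells, called LM2 and Parental below, with 3 libraries of each. EO771 is a mouse mammary tumour line of C57BL/6 origin that grows in culture. Both lines are labelled as breast cancer cells of genotype WT, both carry tdT in their names, and both were grown in RPMI 1640 with 10% serum for 48 h, to about 75% confluence, with no treatment named. The titles of all Parental libraries also carry the tag Ac6, which no LM2 title has and which the labels do not explain. Whatever it marks cannot be told apart from the line. The labels do not say how LM2 was derived, whether either line is 1 clone, or whether the replicates were separate cultures. The p-values therefore reflect the spread among these libraries alone, and that spread may be technical.

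A class I molecule is a heavy chain paired with beta-2-microglobulin, the product of B2m, and holds a short peptide at the cell surface. H2-K1 and H2-D1 encode the classical heavy chains, which show peptides from inside the cell to CD8 T cells and engage receptors of natural killer cells. The other heavy chains are nonclassical. NLRC5 is a transactivator that binds no DNA by itself and acts on class I promoters with the RFX complex, and interferons raise the genes of this pathway.

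Class I transcripts were higher in LM2 than in Parental cells for both classical heavy chains, the light chain, the transactivator and 3 nonclassical heavy chains. H2-K1 was 2.45-fold higher, Nlrc5 1.98-fold, B2m 1.65-fold and H2-D1 1.64-fold. Of the 10 genes, 9 had enough counts to be tested, 7 were called higher and 0 were called lower by edgeR's quasi-likelihood test at a Benjamini-Hochberg adjusted p below 0.05. H2-Q4 and H2-T23 did not pass, and H2-Q6 was not tested. The lines differ widely, and 31.4% of the 13247 tested genes were called higher in LM2 and 62.4% in either direction. Among the 8834 tested genes of at least 10 CPM (counts scaled to the size of the library), 34.1% were called higher. The median log2 fold change of the 9 tested genes was 0.72, against -0.004 over all tested genes. In the same 7 genes the 3 LM2 libraries lay wholly above the 3 Parental libraries in CPM, which was so for 33.4% of tested genes (67% did not overlap in either direction). DESeq2 also called 7 of the 10 genes higher, against 29.7% of tested genes. A log2 fold change at least that of H2-K1 was reached by 646 called genes, H2-K1 included.

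**Figure D1:**
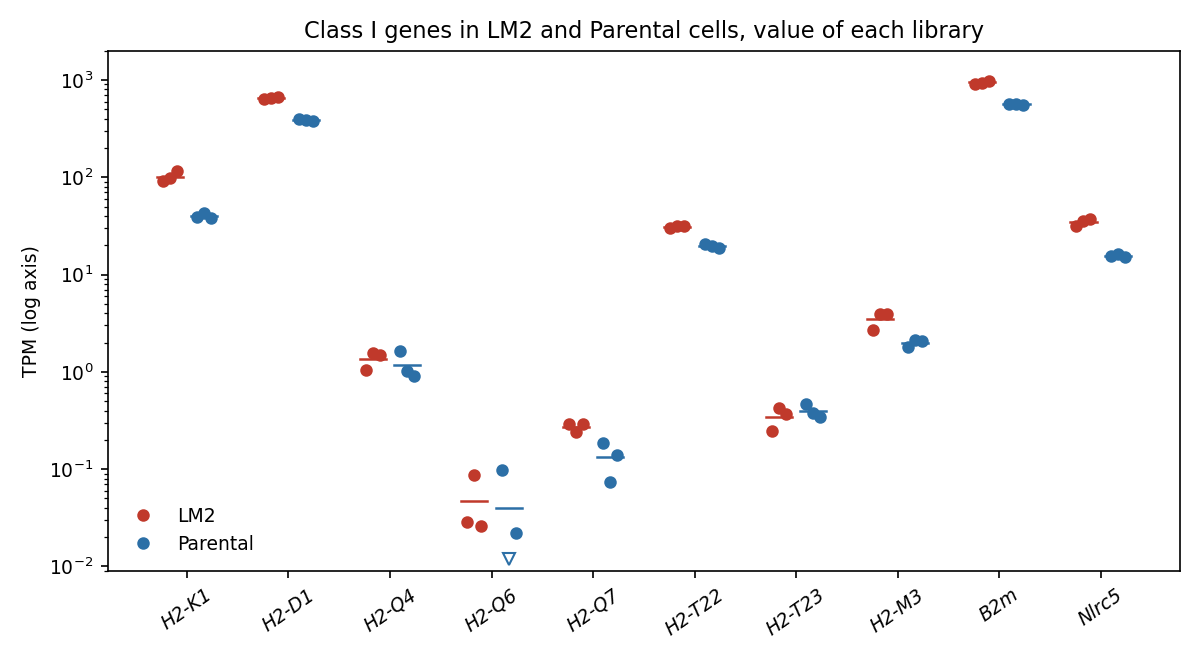
Level of each of the 10 genes in every library, in TPM (transcript abundance scaled for length and depth) on a log axis, with LM2 left of Parental and 1 point per library. B2m (920 to 988 TPM in LM2, 554 to 566 in Parental) and H2-D1 stand highest and H2-Q6 lowest, with 1 Parental library of H2-Q6 at 0 drawn as an open triangle at the bottom.

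The level per transcript length, in TPM, spanned several orders of magnitude between these genes. In LM2, B2m was highest at 949 ± 35.2 TPM, followed by H2-D1 at 656 ± 17.8 and H2-K1 at 101 ± 12.2 (SD, n = 3). In Parental cells the order at the top was the same, with B2m at 562 ± 7.02, H2-D1 at 390 ± 9.56 and H2-K1 at 40.1 ± 2.39 TPM (SD, n = 3). None of these 3 neighbours in the order overlapped within a line. Nlrc5 and H2-T22 came next. They overlapped in LM2, and Nlrc5 was the lower of them in Parental cells and, on protein-coding transcripts alone, in both lines. H2-M3 and H2-Q4 followed, and the last 3 genes, H2-T23, H2-Q7 and H2-Q6, did not exceed 0.471 TPM in any library. H2-T23 and H2-Q7 overlapped each other in LM2, and H2-Q7 and H2-Q6 overlapped in Parental cells, so those neighbours were not told apart there.

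Promoter sequences are shown for the classical genes, the light chain and 3 nonclassical genes, because genes called higher and a gene that was not called can be read side by side. The RefSeq table, on build GRCm38.p6, held a 300-base window around the annotated start, 250 bases before it and 50 after it, for 9 of the 10 genes. Nlrc5 had no entry. The stretches run 5′ to 3′ on the strand of the gene, and capitals mark matches, on either strand, to 4 kinds of motif. These are an NF-kB consensus by name, an interferon-stimulated response element (a core of GAAA, any 2 bases and GAAA, or the spacing GAANNGAAA), an X2 box (TGNTGACG) and an inverted CCAAT or Y box (ATTGG).
H2-K1: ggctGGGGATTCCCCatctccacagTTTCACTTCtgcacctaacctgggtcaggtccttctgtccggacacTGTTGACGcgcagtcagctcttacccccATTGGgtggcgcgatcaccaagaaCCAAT
H2-D1: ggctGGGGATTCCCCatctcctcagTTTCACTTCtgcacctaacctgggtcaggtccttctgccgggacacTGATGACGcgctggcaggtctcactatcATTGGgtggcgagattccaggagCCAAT
H2-M3: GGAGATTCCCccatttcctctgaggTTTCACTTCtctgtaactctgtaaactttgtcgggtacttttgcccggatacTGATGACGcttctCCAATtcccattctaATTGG
H2-T22: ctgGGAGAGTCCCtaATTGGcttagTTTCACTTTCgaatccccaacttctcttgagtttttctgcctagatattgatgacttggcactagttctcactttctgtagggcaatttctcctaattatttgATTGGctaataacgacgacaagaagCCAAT
H2-T23: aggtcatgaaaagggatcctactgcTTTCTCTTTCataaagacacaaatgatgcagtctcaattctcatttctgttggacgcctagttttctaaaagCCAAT
B2m: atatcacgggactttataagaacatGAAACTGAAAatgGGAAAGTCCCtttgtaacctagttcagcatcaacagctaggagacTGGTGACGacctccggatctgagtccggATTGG
The stretch of H2-K1 lies at chr17:34000335-34000462 on the minus strand and that of H2-D1 at chr17:35262919-35263045 on the plus strand. That of H2-M3 lies at chr17:37270108-37270217 on the plus strand. Those of H2-T22, at chr17:36042801-36042958, and H2-T23, at chr17:36032749-36032850, are on the minus strand, and that of B2m lies at chr2:122147523-122147638 on the plus strand.

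All 9 windows held ATTGG, which 37.4% of all 32851 promoter windows hold, and 8 held the NF-kB consensus (8.46% of all windows), the exception being H2-T23. The response element core was found in H2-T22, H2-T23 and B2m (3.44% of all windows). The spacing GAANNGAAA, 1 base shorter than the core, was found in H2-K1, H2-D1, H2-Q4, H2-Q6, H2-Q7 and H2-M3 (7.52% of all windows). TGNTGACG was found in H2-K1, H2-D1, H2-Q4, H2-Q7, H2-M3 and B2m (2.26% of all windows), and in H2-Q4 it lay only after the annotated start. GAANNGAAA and TGNTGACG were chosen after the promoters had been read, so their counts describe these promoters only. A pair of further motifs, TTCNNNGAA and TGACGNNA, whose first 5 letters are the last 5 of TGNTGACG, each matched 1 gene, H2-M3 and H2-Q4 (8.3% and 6.61% of all windows). H2-T23, which was not called, differed from H2-K1 and H2-D1 in holding neither the NF-kB consensus nor TGNTGACG, whereas H2-T22, which was called, lacked TGNTGACG as well. H2-Q4, also not called, held the NF-kB consensus and GAANNGAAA as the classical genes did. A match is a description of letters and not evidence of a factor at the site.

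Of the tested genes here, H2-K1 had the largest log2 fold change. H2-K1 (ENSMUSG00000061232, chromosome 17) had 90.7, 99 and 115 TPM in LM2 replicates 1 to 3, against 39.4, 42.8 and 38.1 TPM in Parental replicates 1 to 3. Every LM2 library lay above every Parental library. The log2 fold change was 1.29 ± 0.07 (SE), with an adjusted p of 7.19e-07 by edgeR. H2-D1 (ENSMUSG00000073411, chromosome 17) had 636, 660 and 671 TPM in LM2, against 399, 391 and 380 TPM in Parental cells, again with no overlap. Its log2 fold change was 0.71 ± 0.03 (SE; edgeR adjusted p 4.1e-16). Of the 31-base words in their reference transcripts, 22.8% in H2-K1 and 26.9% in H2-D1 also occur in other genes. A read cannot be assigned to 1 gene where all its words also occur in the same other gene. The shares of words are therefore not shares of reads. H2-K1 and H2-D1 share 358 words with each other, 11.1% of those of H2-K1 and 13.8% of those of H2-D1. The transcript H2-D1-201 has 406 bases in the reference, against 1744 in the deposited data. It held 43% of H2-D1 counts in LM2 and 40.6% in Parental cells. The shares that involve H2-D1 may therefore differ for the transcripts that the authors used.

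The light chain gene B2m (ENSMUSG00000060802, chromosome 2) shares no 31-base word with another gene. It had 920, 938 and 988 TPM in LM2 replicates 1 to 3, against 566, 566 and 554 TPM in Parental replicates 1 to 3, without overlap. The log2 fold change was 0.72 ± 0.03 (SE; edgeR adjusted p 7.68e-16), close to that of H2-D1.

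Nlrc5 (ENSMUSG00000074151, chromosome 8), the transactivator, also shares no word with another gene. It had 31.2, 35.6 and 36.9 TPM in LM2, against 15.4, 16.1 and 15.3 TPM in Parental cells, and the lines did not overlap. Its log2 fold change was 0.98 ± 0.05 (SE; edgeR adjusted p 7.01e-12). On average most of this TPM lay on transcripts not annotated as protein-coding, mainly short ones, which take few reads but weigh heavily per length. The protein-coding part was 12.3 of 34.6 TPM in LM2 and 6.89 of 15.6 TPM in Parental cells (means). On its 4 protein-coding transcripts alone Nlrc5 had 11.2, 12.5 and 13.4 TPM in LM2, against 6.36, 8.06 and 6.25 TPM in Parental cells, also without overlap.

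Among the nonclassical heavy chains, H2-T22, H2-M3 and H2-Q7 were higher in LM2. H2-T22 (ENSMUSG00000056116), whose product is bound by a subset of gamma-delta T cells, had 29.9, 31.6 and 31.3 TPM in LM2, against 20.4, 19.7 and 18.7 TPM in Parental cells. The lines did not overlap, and the log2 fold change was 0.62 ± 0.05 (SE; edgeR adjusted p 3.95e-10). H2-T22 shares 47.2% of its words with H2-T10 alone, and H2-T22 and H2-T10 counted together gave 0.63 ± 0.05 (SE; edgeR adjusted p 2.72e-10). H2-M3 (ENSMUSG00000016206), which presents N-formylated peptides such as those of bacteria and mitochondria, had 2.72, 3.89 and 3.89 TPM in LM2, against 1.81, 2.1 and 2.06 TPM in Parental cells. Its libraries did not overlap either, and the log2 fold change was 0.79 ± 0.19 (SE; edgeR adjusted p 0.000927). It shares 4.62% of its words with other genes, the fewest of the heavy chains here.

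H2-Q7 (ENSMUSG00000060550) encodes a Qa-2 antigen. Its rounded counts were 27, 22 and 30 in LM2, against 23, 7 and 16 in Parental cells, and 0.289, 0.24 and 0.291 TPM in LM2, against 0.184, 0.0743 and 0.141 TPM in Parental cells. The TPM did not overlap, and the log2 fold change was 0.99 ± 0.36 (SE; edgeR adjusted p 0.0216). The call does not hold without LM2 replicate 1, without LM2 replicate 3 or without Parental replicate 2, at adjusted p of 0.0626, 0.0686 and 0.113 (edgeR), with log2 fold changes between 0.70 and 1.30 over all left-out libraries. In all libraries its counts lay on a retained-intron transcript, H2-Q7-206, and none on its 4 protein-coding transcripts. Of the words of H2-Q7, 39.2% also occur in other genes, with 22.4% in H2-Q10 and 15.5% in H2-Q5.

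H2-Q4, H2-Q6 and H2-T23 showed no difference that passed the test. H2-Q4 (ENSMUSG00000035929), a Q-region heavy chain, had 1.05, 1.57 and 1.49 TPM in LM2, against 1.64, 1.01 and 0.914 TPM in Parental cells, with overlap (log2 fold change 0.21 ± 0.25 SE, edgeR adjusted p 0.496). With 1 library left out its log2 fold change ranged from 0.06, without Parental replicate 3, to 0.52, without Parental replicate 1, and it was not called in any of these fits. H2-T23 (ENSMUSG00000067212) encodes Qa-1, which presents leader peptides of other class I molecules to the CD94/NKG2 receptors. It had 0.249, 0.421 and 0.37 TPM in LM2, against 0.471, 0.381 and 0.341 TPM in Parental cells. The lines overlapped (log2 fold change -0.05 ± 0.36 SE, edgeR adjusted p 0.92), and only 16.3% to 41.9% of its counts in a library were on its protein-coding transcript. H2-Q6 (ENSMUSG00000073409), the other Qa-2 gene here, had 1, 4 and 1 counts in LM2 and 6, 0 and 1 in Parental cells. It was at the limit of detection in both lines, and shares 51.8% of its words with other genes.

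**Figure D2:**
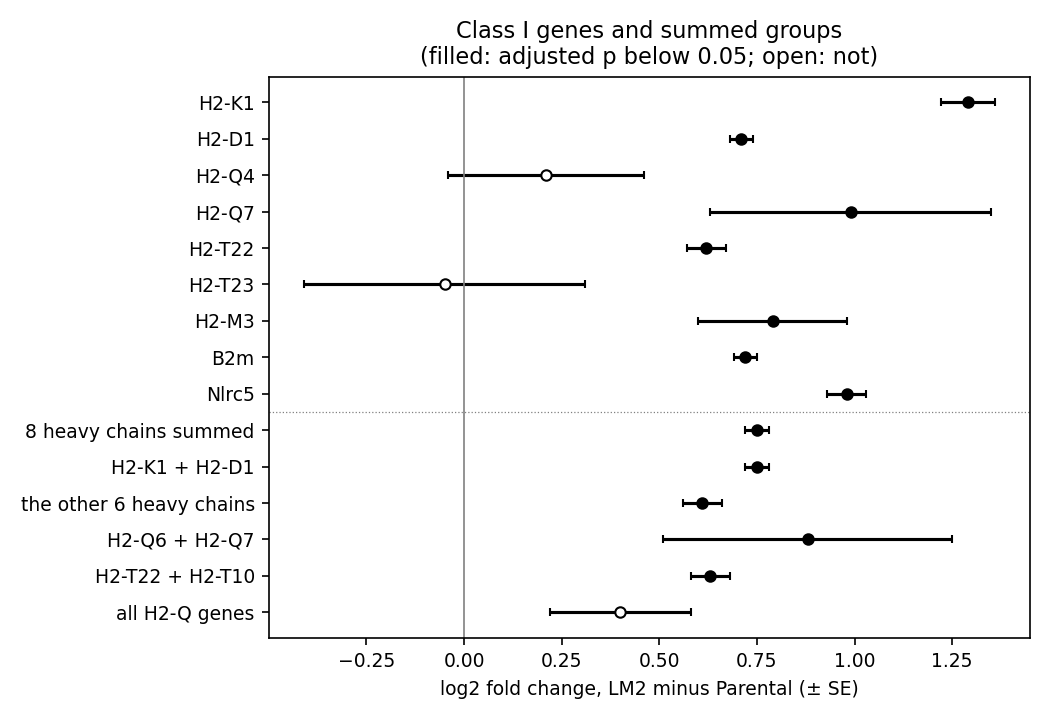
Log2 fold change of each tested gene, LM2 minus Parental, with its standard error. H2-K1 lies at 1.29, B2m and H2-D1 lie at 0.72 and 0.71, and H2-Q4 and H2-T23 did not pass the test.

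Because shared reads can move between heavy chains, the counts of all 8 were also summed before testing. The sums were 29045, 29002 and 33897 in LM2, against 23929, 18730 and 20193 in Parental cells, from libraries of 33922699 to 38182191 estimated counts in LM2 and 36597892 to 45849019 in Parental cells. Scaled for depth, the sum was 1.68-fold higher in LM2 (log2 fold change 0.75 ± 0.03 SE, edgeR adjusted p 3.09e-16). The 6 nonclassical heavy chains alone, without H2-K1 and H2-D1, gave 0.61 ± 0.05 (SE; edgeR adjusted p 7.23e-10). H2-T22 held most of their counts, at 1106, 1120 and 1263 of 1266, 1332 and 1502 in LM2. In Parental cells H2-T22 held 999, 780 and 830 of 1209, 911 and 977. The value therefore mainly describes H2-T22 and is not a result for each of the 6 genes. The 29 genes with a numbered H2-K, H2-D, H2-Q, H2-T or H2-M symbol, or named H2-Bl, gave 0.74. Most of their counts were those of H2-D1, and class I-like genes of other names were not included. H2-Q6 and H2-Q7 together gave 0.88 ± 0.37 (SE; edgeR adjusted p 0.0412). That call was lost in most alternative settings, and the value was 0.56 without Parental replicate 2 (adjusted p 0.197) and 1.33 without Parental replicate 1. All 8 H2-Q genes gave 0.40 ± 0.18 (SE; edgeR adjusted p 0.0532), which did not pass.

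Per length, the summed heavy chains had 761, 797 and 823 TPM in LM2, against 463, 457 and 441 TPM in Parental cells. H2-D1 made up 82.6 ± 1.04% of the sum in LM2 and 86 ± 0.417% in Parental cells (SD, n = 3 each). H2-K1 made up 12.8 ± 1.05% in LM2 and 8.85 ± 0.458% in Parental cells, with no overlap. H2-T22 held 3.9 ± 0.0853% in LM2 and 4.31 ± 0.0781% in Parental cells. H2-M3 held 0.439% in both lines.

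Ratios within a library were compared by an exact two-sided permutation test, which with 3 libraries against 3 cannot give a p below 0.10. The ratio of H2-K1 to H2-D1 was 0.143, 0.15 and 0.171 in LM2, against 0.0988, 0.11 and 0.1 in Parental cells, a log2 difference of 0.58 (exact permutation p = 0.10, 0.13 adjusted over 4 ratios). The libraries did not overlap. The ratio of B2m to the summed heavy chains was 1.21, 1.18 and 1.2 in LM2, against 1.22, 1.24 and 1.26 in Parental cells, a log2 difference of -0.05 (exact p = 0.10, 0.13 adjusted). The libraries of the lines did not overlap in this ratio of TPM, but with CPM in its place the log2 difference was -0.02 (exact permutation p = 0.40). The ratio of B2m to H2-D1 overlapped between the lines, at 1.45, 1.42 and 1.47 in LM2 and 1.42, 1.45 and 1.46 in Parental cells (log2 difference 0.01, exact p = 0.80). The ratio of Nlrc5 to H2-T22 was 1.04, 1.13 and 1.18 in LM2, against 0.757, 0.819 and 0.822 in Parental cells (log2 difference 0.48, exact p = 0.10, 0.13 adjusted). On protein-coding transcripts alone the ratio of Nlrc5 to H2-T22 overlapped, at 0.391, 0.415 and 0.453 in LM2 and 0.33, 0.435 and 0.359 in Parental cells.

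**Figure D3:**
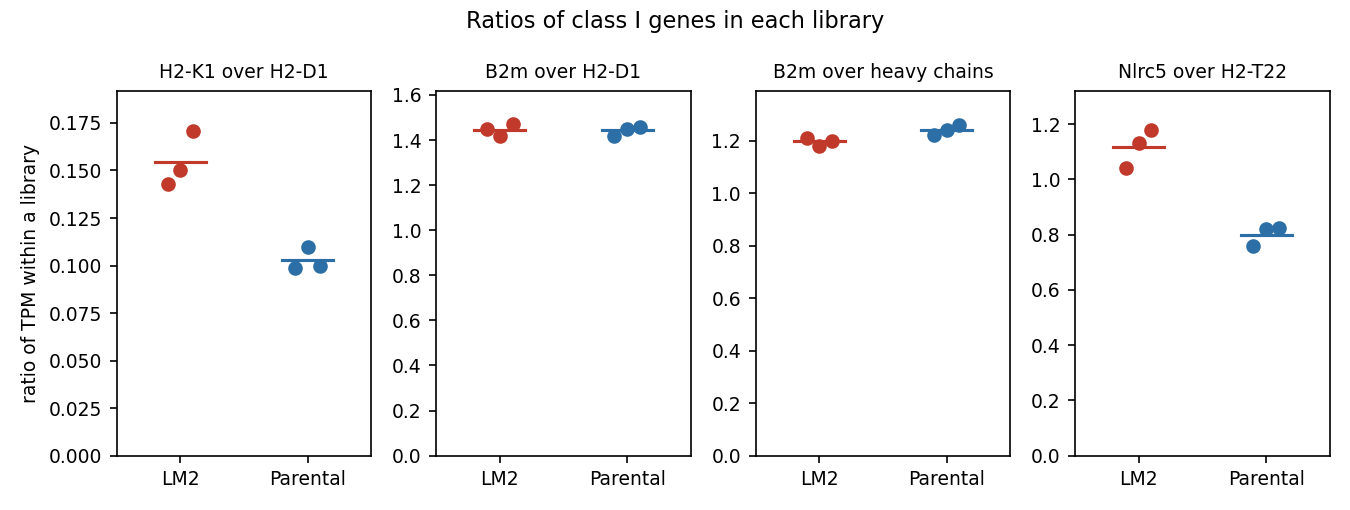
Ratio of TPM within each library, LM2 left of Parental, 1 point per library and a line at the mean. H2-K1 over H2-D1 lies at 0.143 to 0.171 in LM2 and 0.0988 to 0.11 in Parental cells, whereas B2m over H2-D1 overlaps.

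The shares of a gene's counts on its transcripts are given here from counts summed over the 3 libraries of a line. H2-K1-201 held 64.6% of H2-K1 counts in LM2 and 64.1% in Parental cells, and H2-D1-202 held 56.9% and 59.3% of H2-D1 counts in LM2 and Parental cells. Nlrc5-207 held 79.6% in LM2 and 73.5% in Parental cells. The share of counts on protein-coding transcripts was at least 86% in every library for H2-K1, H2-D1, H2-T22, H2-M3, B2m and Nlrc5.

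The tested genes beside each gene on its chromosome were compared with it, 10 on each side, with the other members skipped. Some neighbours belong to the same pathway or family, such as Tapbp and Psmb9 beside H2-K1 and H2-T10 beside H2-T22. The 20 neighbours of Nlrc5 had a median log2 fold change of -0.33, with 2 called higher and 16 called lower. On chromosome 8 as a whole the median was -0.31 over 702 tested genes, of which 13.8% were called higher. The log2 fold change of Nlrc5 had the opposite sign to both medians. The neighbours of H2-K1 had a median of -0.05 (3 higher, 7 lower), those of H2-D1 0.12 (5 higher, 4 lower) and those of H2-T22 0.08 (6 higher, 3 lower). Chromosome 17 as a whole had a median of 0.03, with 31.7% of 688 tested genes called higher. The neighbours of B2m had a median of -0.12 (4 higher, 9 lower), on a chromosome where 28.1% of 1098 tested genes were called higher.

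**Figure D4:**
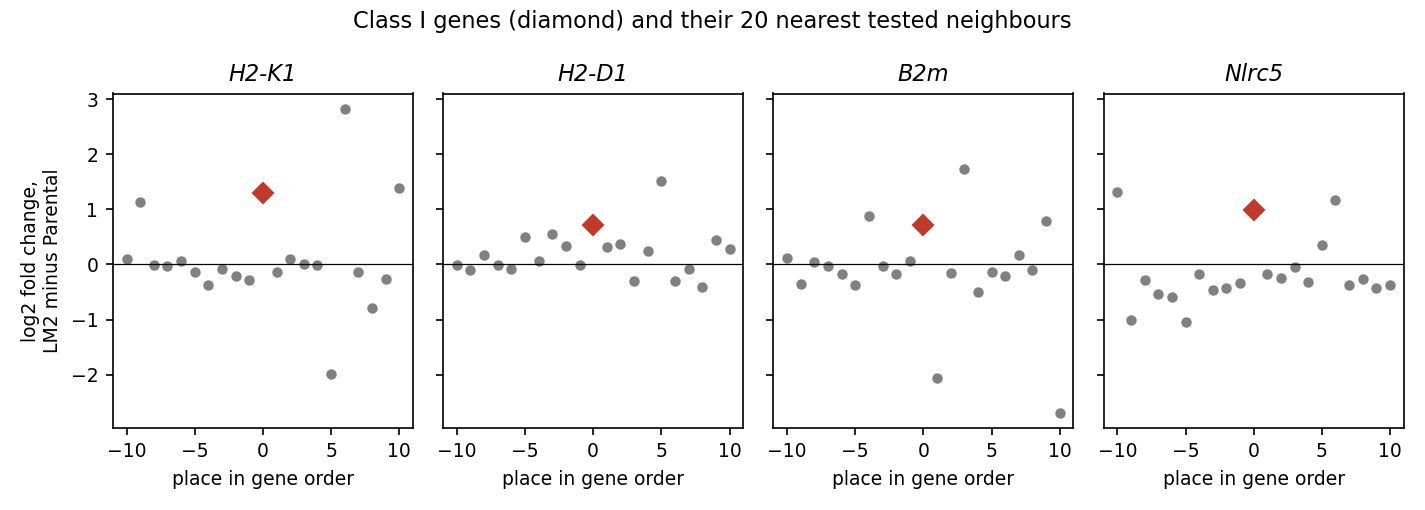
Log2 fold change, LM2 minus Parental, of class I genes (diamonds) and their 20 nearest tested neighbours outside the members, by order along the chromosome. Nlrc5, at 0.98, lies above the median of its neighbours, -0.33, but below Mmp2 (1.316) and Cx3cl1 (1.162).

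The genes that supply and load peptides on class I molecules were mostly higher in LM2. Of 13 tested, 10 were called higher and 3 lower, with a median log2 fold change of 0.63, beside 31.4% called higher and 31.1% lower of all tested genes. Psmb8, a catalytic subunit of the immunoproteasome, had 44.5 ± 3.43 CPM in LM2 and 7.27 ± 0.157 CPM in Parental cells, a 6.12-fold difference (edgeR adjusted p 4.99e-19). Its partner subunit Psmb9 was 2.63-fold higher and Tap1, a subunit of the peptide transporter, 2-fold higher. Psmb10, the remaining inducible catalytic subunit, was lower at 13.7 ± 1.19 CPM in LM2 and 16.4 ± 0.502 CPM in Parental cells (edgeR adjusted p 0.00149), a call that does not hold on protein-coding transcripts alone (adjusted p 0.279). The tapasin relative Tapbpl fell by 0.62 on the log2 scale, and the third, named after its value was seen, was the chaperone Calr, at 763 ± 26.2 CPM in LM2 and 831 ± 17.6 CPM in Parental cells.

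Among 26 regulators of class I transcription, 13 were called higher, 9 lower and 4 were not called, with a median of 0.14. Of all tested genes 31.4% were called higher and 31.1% lower, and the share called lower here is near the latter. The interferon response factors Irf9 and Irf1 were 2.26-fold and 1.64-fold higher. Ezh2, a histone methyltransferase that can silence class I genes, fell by 0.64 on the log2 scale, and Rfxap, a subunit of the RFX complex, by 0.60. Rfx5, another RFX subunit, was not called (log2 fold change 0.09 ± 0.07 SE).

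Of 22 other class I and class I-like genes, 9 were tested, 3 were called higher, 1 lower and 5 were not called, with a median of 0.14, a share called higher near the 31.4% of all tested genes. The neonatal Fc receptor heavy chain Fcgrt had 45.6 ± 2.44 CPM in LM2 and 29.9 ± 0.926 CPM in Parental cells, 1.52-fold higher (edgeR adjusted p 2.24e-10), and the endothelial protein C receptor gene Procr was 1.11-fold higher. The call of Procr does not hold without LM2 replicate 1, Parental replicate 2 or Parental replicate 3 (edgeR adjusted p 0.131, 0.078 and 0.0561), nor in 3 other settings. The remaining calls, named after their values were seen, were H2-T10, at 0.699 ± 0.0868 CPM in LM2 and 0.202 ± 0.153 CPM in Parental cells, and the lipid-presenting Cd1d1, lower at 0.642 ± 0.152 CPM in LM2 and 2.24 ± 0.263 CPM in Parental cells. H2-T10 was not called on protein-coding transcripts alone or where 1 CPM in 3 libraries was required. It shares 1662 words with the more abundant H2-T22. Of 10 MHC class II genes, 5 were tested, with 1 called higher, 1 lower and 3 not called. The lower one was H2-DMa, which helps load class II molecules, at 5.36 ± 0.871 CPM in LM2 and 9.27 ± 0.466 CPM in Parental cells. The higher one, also named after its value was seen, was H2-Oa, a modulator of that loading, at 0.654 ± 0.155 CPM in LM2 and 0.0871 ± 0.0521 CPM in Parental cells. It was too low to be tested where 1 CPM in 3 libraries was required.

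Markers of other cells were read beside these results, since in bulk RNA fewer cells of a type and less RNA per cell cannot be told apart. The 10 leukocyte markers summed to 3.3 to 4.11 CPM in LM2 and 3.14 to 3.17 CPM in Parental cells, with 1 called higher and 1 lower of 2 tested. Those 2, named after their values were seen, made up most of the sum. Cd68 was higher, at 2.68 ± 0.247 CPM in LM2 and 1.75 ± 0.249 CPM in Parental cells. Cd14 was lower, at 0.652 ± 0.141 CPM in LM2 and 1.12 ± 0.177 CPM in Parental cells, a call lost in several alternative settings. Adgre1, Nkg7 and Klrb1c were at 0 in every library, and Ptprc, which all leukocytes express, was at 0.0745 CPM in LM2 and 0.0651 CPM in Parental cells. The 4 endothelial markers summed to 4.12 to 4.6 CPM in LM2 and 3.4 to 4.19 CPM in Parental cells, with 1 of 2 tested called higher. That gene was Cdh5, also named after its value was seen, at 0.668 ± 0.0967 CPM in LM2 and 0.18 ± 0.102 CPM in Parental cells. Pecam1, at 3.59 CPM in LM2 and 3.49 CPM in Parental cells, was not called. The 4 fibroblast markers summed to 170 to 192 CPM in LM2 and 125 to 128 CPM in Parental cells, nearly all of it Pdgfra, the 1 gene tested, which was called higher. The 6 mammary epithelial markers summed to 584 to 603 CPM in LM2 and 416 to 428 CPM in Parental cells, and the 3 tested were called higher. Most of that was Krt8, while Krt18, Krt5 and Cdh1 stayed below 0.2 CPM on average in both lines. Epcam had 15 CPM in LM2 and 0.154 CPM in Parental cells. The basal keratin Krt14 had 8.47 ± 0.571 CPM in LM2 and 1.11 ± 0.18 CPM in Parental cells, 7.67-fold higher (edgeR adjusted p 8.03e-14). The part of the epithelial and fibroblast markers in the class I differences was not tested.

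The authors' deposited table of fold changes lists 7 of the 10 genes, with a value of 1.35 for H2-K1, 0.72 for H2-D1, 0.73 for B2m, 0.63 for H2-T22, 0.75 for H2-M3 and 0.20 for H2-Q4. The authors' deposited table gives 0.76 for Nlrc5, where the fit here gave 0.98. Neither the base of the logarithm nor the direction is stated there, and both were read from closeness to the values here. Over 10557 genes the median absolute difference was 0.0244, and 93% had the same sign.

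Pearson's r with H2-K1 over the 6 libraries, on log2 CPM, was highest for Akap2 (0.9998), Sept8 (0.9994), Adprh (0.9994), Pla1a (0.9993) and Tspan9 (0.9993) among 8829 genes of at least 10 CPM. These r values rest mainly on the difference between the lines, which the 6 libraries share. With each line centred on its mean, the nearest were Mta1 (0.9989), Akap2 (0.9946), Ccn4 (0.9942), Lrp6 (0.9929) and Dnajc7 (0.9922). Their log2 fold changes were -0.12, 0.88, 0.96, -0.14 and 0.16 in that order. The highest of 8829 values over 6 libraries can lie near 1 without a link between genes, and no link was tested.

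**Figure D5:**
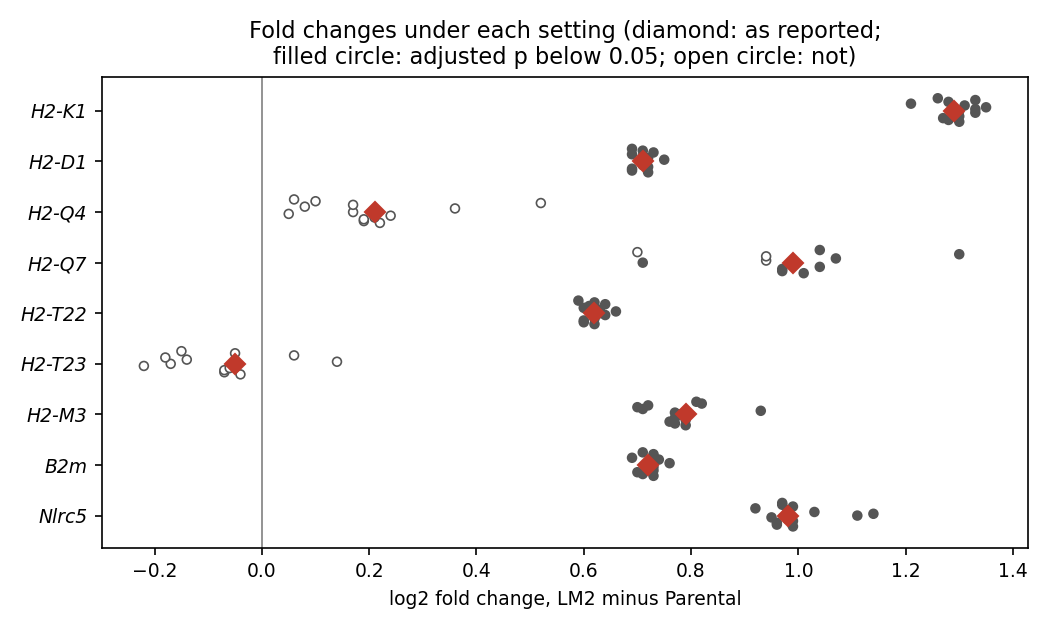
Log2 fold change of the members, LM2 minus Parental, as reported (diamonds) and under the alternative settings (filled circles where the gene was called, open where not). H2-K1 stays between 1.21 and 1.35 and B2m between 0.69 and 0.76, whereas H2-Q7 spreads between 0.70 and 1.30.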

How the data were processed

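Per library, the authors deposited a table of 117486 transcripts holding estimated counts, TPM, transcript length and effective length in bases. The submitters' processing notes name kallisto 0.46.2, build GRCm39, edgeR 3.32.1, FastQC and MultiQC. Neither the set of transcripts nor the handling of strand is given in the sources used here. Reads of overlapping and antisense genes are therefore not separable. A further deposited table holds the authors' log2 fold changes by gene symbol, with the base unstated in it.

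Transcripts were named with GENCODE M21, which is on GRCm38 and so gave names, types, chromosomes and order only; 116408 (99.1%) matched a gene, and the others held 0.426% to 0.448% of counts and were left out. Counts were summed per gene and rounded. Depth was 33922699 to 45849019 estimated counts per library; precision is that of these counts, and reads are not independent molecules. The main test was edgeR 4.0.16 in R 4.3.3 (filterByExpr, TMM, robust quasi-likelihood, Benjamini-Hochberg, threshold 0.05). DESeq2 1.42.0 and limma 3.58.1 (log2 of TPM plus 0.1) were alternatives. Standard errors came from the fold change and F statistic. The test was run on simulated counts of 13247 genes, with 50 genes changed at each fold size. It recovered 74% of those changed 1.2-fold and 100% of those changed 4-fold, and 2.72% of its calls were false. Far fewer genes changed there than were called here, so the simulation does not check the test under such wide change. Shared 31-base words were counted in the GENCODE transcripts, of which 48 of 49 for the members had the deposited length. The exception was H2-D1-201, with 406 bases in place of 1744.

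Within a line, log2 CPM correlated at 0.991 to 0.994 across genes. The members and lists were chosen with earlier results of these data known. All 10 members are named, and from each list the 2 called genes with the largest change on each side of at least 5 CPM, plus a few by their known roles (Irf1, Rfx5, Tap1 and Psmb8); 1 gene that the rule gave is not reported here. The ratios other than B2m over heavy chains, the sum with H2-T10 and the motifs GAANNGAAA and TGNTGACG were chosen after seeing the data. The Ac6 tag in the Parental titles was not used.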

Additional observations from a re-analysis of the deposited data

How the results depend on the processing

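Across 14 alternative settings, 6 or 7 of the members were called higher and 0 lower, and the 8 pooled heavy chains stayed between 0.72 and 0.81 (log2), or 0.72 to 0.76 with a library left out. With the replicate number as a block, 7 members and 8250 genes were called. Same-numbered libraries correlated at -0.078, 0.0452 and 0.0147 in their deviations from the line means, and 1 of 6 correlated best with its own number. These values show no pairing by number, but 3 libraries per line cannot exclude a weak one. All genes called ranged from 6729 with limma to 8596 with no filter. H2-Q7 lost its call with an offset for effective length (adjusted p 0.0540) and without the libraries named above, and was not tested with at least 1 CPM in 3 libraries or on protein-coding transcripts; the cause was not tested. H2-Q6 and H2-Q7 pooled lost their call in most settings (adjusted p 0.0558 to 0.197), also without any 1 library other than Parental replicate 1, and all H2-Q genes pooled gained one with at least 1 CPM in 3 libraries, without LM2 replicate 1 and without Parental replicate 1 (0.0457, 0.0342 and 0.0121). Procr also lost its call with no low-count filter, the effective length offset and limma (0.0572, 0.234 and 0.0866). On CPM in place of TPM the ratio of B2m to the heavy chains differed by -0.02 (exact permutation p = 0.40). Differences near 0 changed sign: Rfx5 was -0.14 with the effective length offset and -0.11 with limma, H2-T23 ranged from -0.18 to 0.14 and B2m over H2-D1 from -0.01 to 0.02 with a library left out. The median log2 fold change of all genes lay between -0.022 (upper-quartile factors) and 0.032 (limma), against -0.004 as reported. Counts of at most 30 per library limit H2-Q6, H2-Q7 and H2-T23.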
